A study of Mus musculus with 4 samples.

Results

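The keratin family was followed across spatial RNA-seq (10x Genomics Visium) of wild-type mouse heads. Its members were taken as every gene row whose symbol is Krt followed by a number and at most 1 letter, which gave 48 of the 19465 genes listed. Of these, 23 had at least 100 UMIs (unique molecular identifiers, each standing for 1 captured molecule) over all tissue and were described 1 by 1. The other 25 were only counted: they held 537 UMIs together, from 1 UMI for Krt81 to 60 for Krt78. All keratin rows together held 455295 UMIs, 0.162% of the UMIs of the tissue, and Krt15, Krt14, Krt10 and Krt5 took 70.3% of them, a share of counts that the efficiency of each gene's probes can affect.

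Sections were mid-palatal coronal cuts through formalin-fixed, paraffin-embedded whole heads at embryonic day 14.5 (E14.5) and 15.5 (E15.5), both from wild-type embryos with no other treatment, stages between which the palatal shelves meet and fuse. Each stage had 2 capture areas, 1 holding a single section (replicate 1, the single-section area) and 1 holding replicates 2, 3 and 4 in a shared library (the shared area), so that 4 areas with 8 sections were available and the area was the sample throughout. The 6357 tissue spots used are 55 µm wide, and the labels put about 10 cells under each, so a level below is that of a mixture. Values over the 4 areas are given in the order E14.5 single-section, E14.5 shared, E15.5 single-section and E15.5 shared.

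Keratins are the intermediate filament proteins of epithelial cells. A filament is built from pairs of 1 acidic type I and 1 basic type II protein, and in the mouse the type I genes lie together on chromosome 11 (except that of Krt18) and the type II genes on chromosome 15. Simple epithelia use Krt8 with its type I partners, the dividing basal layer of a stratified epithelium uses Krt5 with Krt14, and cells that leave the basal layer of skin turn to Krt1 with Krt10, while wet lining epithelia such as that of the mouth turn to Krt4 with Krt13. In the head at these stages the epidermis is stratifying under a covering layer of flat cells, the periderm, and teeth and hair follicles are budding from the epithelium. In these files 26 keratin rows lay on chromosome 11 (12 of them described) and 22 on chromosome 15 (11 described). Krt18 was not analysed here.

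Upstream sequences of keratins that led in different places are shown first, as the windows in which a promoter search was made. They are the 250 bases before the RefSeq transcription start (RefSeq, GRCm38.p6, the patched form of the mm10 build named in the labels), all read 5′ to 3′ on the minus strand and lying outside annotated gene bodies, and capitals mark a searched motif on either strand. The basal gene Krt5 (ENSMUSG00000061527, chr15:101707070-101712898) had none of the 4 searched motifs in its window, chr15:101712906-101713155, nor had Krt77 (ENSMUSG00000067594, chr15:101858731-101869705), a suprabasal keratin of embryonic skin, in chr15:101869706-101869955. Krt10 (ENSMUSG00000019761, chr11:99385254-99389364), the type I keratin of suprabasal epidermis, held a TATA box 26 bases before the start in chr11:99389365-99389614. Krt13 (ENSMUSG00000044041, chr11:100117327-100121566), the type I keratin of lining epithelia, held an AP-1 match in chr11:100121567-100121816, where the searched letters TGANTCA leave the middle base open. A second RefSeq window of Krt13, inside its annotated gene body at chr11:100120578-100120827, held 2 matches, both TGACTCA, and is not shown. Krt75 (ENSMUSG00000022986, chr15:101563345-101573904), known from the hair follicle, held a GC box in chr15:101573905-101574154, and Krt73 (ENSMUSG00000063661, chr15:101793308-101802346), known from the inner root sheath of the hair follicle, held a TATA box 30 bases before the start in chr15:101802361-101802610.
Krt5: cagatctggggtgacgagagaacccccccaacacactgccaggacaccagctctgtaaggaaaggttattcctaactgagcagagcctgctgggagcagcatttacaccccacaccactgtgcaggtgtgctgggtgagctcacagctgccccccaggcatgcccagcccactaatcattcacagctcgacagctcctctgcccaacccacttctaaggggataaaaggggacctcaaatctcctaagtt
Krt77: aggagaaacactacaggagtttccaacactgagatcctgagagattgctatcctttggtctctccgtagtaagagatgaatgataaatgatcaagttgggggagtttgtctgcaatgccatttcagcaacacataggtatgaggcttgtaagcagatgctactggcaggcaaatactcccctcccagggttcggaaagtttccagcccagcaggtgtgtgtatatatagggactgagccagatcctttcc
Krt10: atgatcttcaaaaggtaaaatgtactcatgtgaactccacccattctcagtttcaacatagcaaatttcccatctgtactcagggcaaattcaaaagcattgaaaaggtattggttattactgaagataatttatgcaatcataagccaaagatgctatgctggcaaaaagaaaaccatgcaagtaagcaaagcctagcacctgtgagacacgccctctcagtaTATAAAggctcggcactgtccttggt
Krt13: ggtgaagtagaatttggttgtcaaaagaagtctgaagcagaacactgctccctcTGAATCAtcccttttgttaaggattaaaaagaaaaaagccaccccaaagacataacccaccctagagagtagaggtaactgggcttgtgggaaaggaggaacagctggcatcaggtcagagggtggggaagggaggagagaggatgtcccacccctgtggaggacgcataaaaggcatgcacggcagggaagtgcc
Krt75: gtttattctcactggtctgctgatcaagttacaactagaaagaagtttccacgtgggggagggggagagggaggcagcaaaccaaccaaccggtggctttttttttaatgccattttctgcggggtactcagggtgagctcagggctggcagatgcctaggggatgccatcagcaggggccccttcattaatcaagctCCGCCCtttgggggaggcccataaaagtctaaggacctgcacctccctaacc
Krt73: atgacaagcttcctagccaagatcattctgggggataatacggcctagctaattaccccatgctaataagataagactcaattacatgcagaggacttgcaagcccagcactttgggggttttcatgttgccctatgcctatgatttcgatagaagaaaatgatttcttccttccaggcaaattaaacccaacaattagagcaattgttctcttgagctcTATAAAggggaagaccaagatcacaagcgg

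RefSeq windows matched 33 of the 48 keratins (14 of the 23 described), with 34 windows in all. The letters TATAAA, on either strand, stood in 16 of the 34 (47.1%) against 12.3% of all 32536 windows of that length, and GGGCGG, a GC box, in 2 (5.88%) against 33.0%. TGANTCA, an AP-1 motif, stood in 2 (5.88%) against 6.73%, and GCCNNNGGC, an AP-2 motif, in 4 (11.8%) against 13.8%. The search was for these letters only, and overlapping matches were allowed.

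Regions were drawn without any keratin gene. A spot counted as stratified epithelium where a list of 10 basal genes (Trp63, Col17a1, Perp and others) reached 300 CPM (counts per 1000000 UMIs of the same spots) with at least 3 UMIs, and as surface epidermis where suprabasal and periderm genes outweighed the basal list by more than 0.5 on the log2 scale over the spot and its neighbours. Stratified spots at or below that cut which did not touch the outside were called oral epithelium, and nasal epithelium was taken from multiciliated genes such as Foxj1 with a low basal list. Surface epidermis held 35, 160, 183 and 250 spots in the 4 areas, oral epithelium 75, 242, 96 and 181, and nasal epithelium 20, 95, 29 and 89. Of the 1262 stratified spots, 164 lay within 0.25 of the cut between surface and oral.

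The lists behind the names behaved as follows. The suprabasal list stood at 1185, 755, 1783 and 1881 CPM in surface epidermis and at 136 to 258 CPM in oral epithelium, both part of the rule. A list of oral genes that the rule did not use (Pitx1, Foxe1 and others) stood at 236 to 298 CPM in oral epithelium and at 95.4 to 158 CPM in surface epidermis. The oral spots included ones rich in tooth-germ or muscle genes, so the name covers stratified epithelium inside the head outline that was not cut as skin. Keratin UMIs occurred in spots with little or no epithelium too: Krt10 read 70.1 to 131 CPM in muscle spots and 45.6 to 74.9 CPM in brain spots, and Krt5 87.8 to 120.1 and 15.5 to 34.3 CPM. A level at or under that of muscle was read as background below. Depth was uneven: the 4 areas held 15438992, 109127953, 67344393 and 89128289 UMIs, with medians of 6752 to 64051 UMIs a spot, and the E14.5 single-section area was the shallowest by far.

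**Figure D1:**
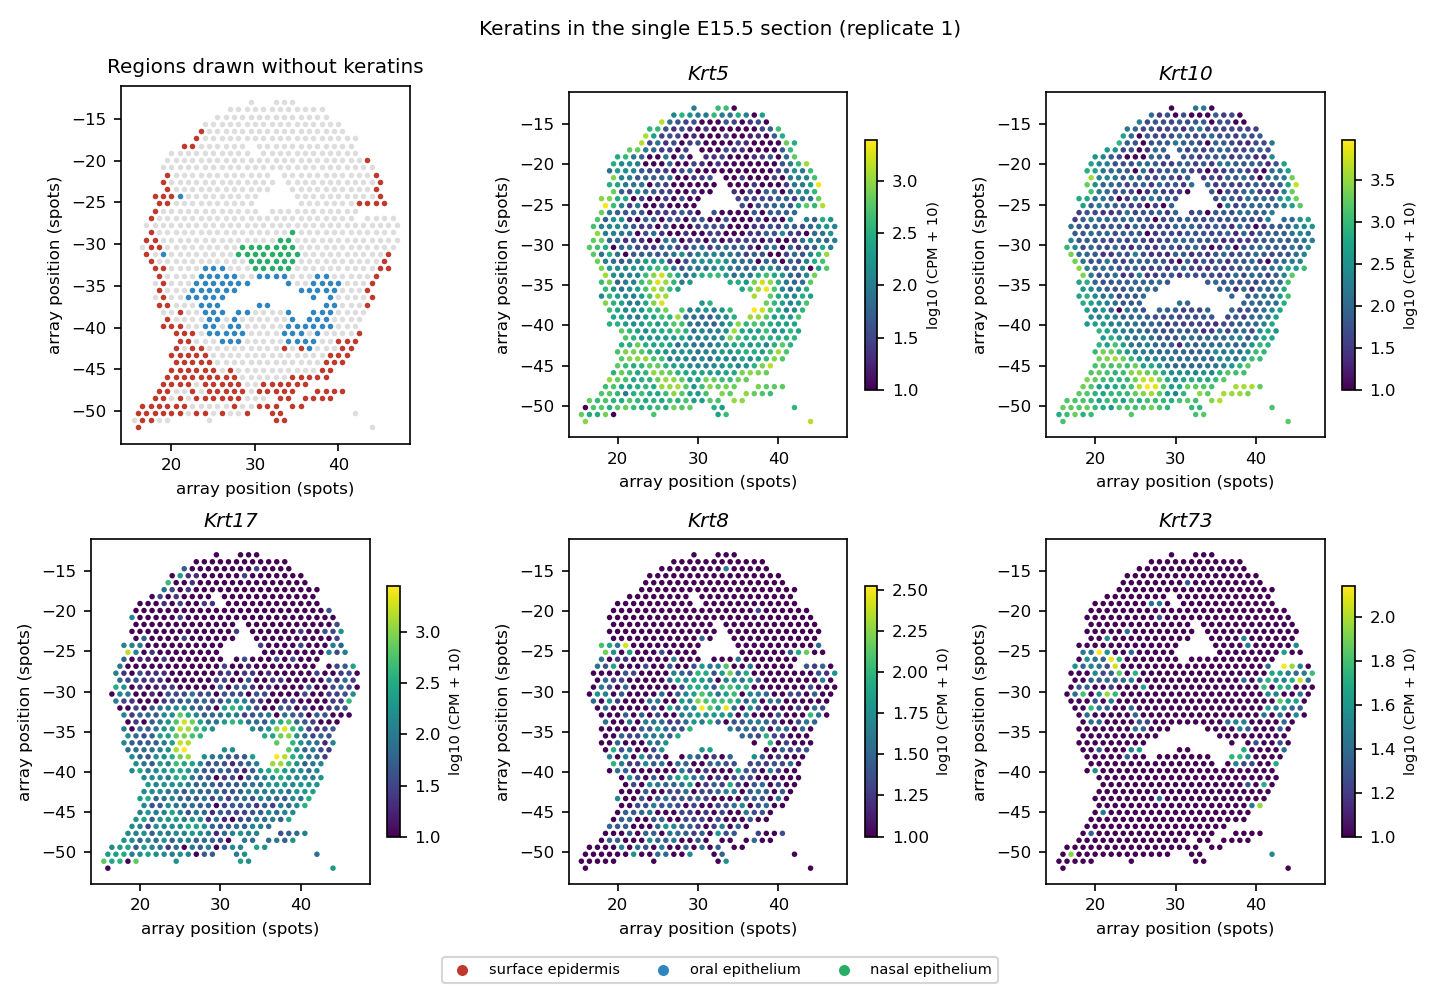
Spots of the E15.5 single-section area, at their positions on the section in spot units, coloured by region (drawn without keratins) and then by the level of Krt5, Krt10, Krt17, Krt8 and Krt73 as log10(CPM + 10). Krt5 marked skin and mouth (603 and 604 CPM in this area), Krt10 skin (1610 CPM), Krt17 the oral spots (498 CPM) and Krt8 the nasal lining (90.5 CPM).

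The basal keratins Krt5 and Krt14 and the related Krt15 ran through skin and mouth alike and were low in the nose. The rule asked for the basal list in every surface and oral spot and for a low one in nasal spots. Over tissue spots these 3 genes had a mean Pearson correlation of 0.70 to 0.75 with that list. Both patterns were thus favoured by the rule and are no independent evidence. Krt5 stood at 622, 454, 603 and 531 CPM in surface epidermis and at 498, 727, 604 and 668 CPM in oral epithelium, and the areas of the groups overlapped. Krt14, its type I partner, stood at 808, 610, 699 and 812 CPM in surface epidermis and at 714, 1020, 642 and 848 CPM in oral epithelium, again overlapping. Krt15 (ENSMUSG00000054146, chr11:100131758-100135928), a type I keratin of basal cells, stood at 1109, 1028, 1388 and 1169 CPM in surface epidermis and at 890.5, 1864, 1328 and 1218 CPM in oral epithelium. In nasal epithelium Krt5 read 64.2 to 107 CPM, at the level of muscle, Krt14 106 to 253 CPM and Krt15 192 to 484 CPM. In the mouth the E14.5 shared area was the highest for all 3 genes, and in skin the highest area differed from gene to gene. In these bulk spots fewer cells of a type and less RNA per cell cannot be told apart.

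The suprabasal keratins of skin, Krt1, Krt10 and Krt77, were surface genes. Krt10 stood at 948, 751, 1610 and 1516 CPM in surface epidermis against 62.5, 146, 67.7 and 115 CPM in oral epithelium. Krt1 (ENSMUSG00000046834, chr15:101845426-101850794), the type II partner of Krt10, stood at 773, 416, 777 and 739 CPM against 35.9, 100.3, 52.4 and 76.0 CPM. Krt77 stood at 152, 146, 413 and 310.0 CPM against 8.10, 16.6, 11.1 and 19.5 CPM. Every surface area lay above every oral area for all 3 genes. Their oral levels were at or under those of muscle spots, where Krt1 read 46.3 to 64.0 CPM and Krt77 16.8 to 26.4 CPM, and were read as background, except that Krt1 and Krt10 in the E14.5 shared area and Krt1 in the E15.5 shared area lay above. Surface epidermis held on average 49.4% of the Krt1, 46.3% of the Krt10 and 49.8% of the Krt77 UMIs of an area.

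The keratins of lining epithelia did not share 1 pattern. Krt13 stood at 53.2, 209, 86.8 and 127 CPM in oral epithelium and at 2.92, 85.7, 14.9 and 154 CPM in surface epidermis, so that the E15.5 shared area went the other way. Krt4 (ENSMUSG00000059668, chr15:101918535-101924735), the type II partner of Krt13, was high in both, at 64.8, 222, 159 and 119 CPM in oral epithelium and at 81.7, 191, 529.9 and 381 CPM in surface epidermis. In skin the E15.5 areas were both higher than either E14.5 area for Krt4, and in the mouth the stages overlapped.

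Part of the surface Krt13 lay beside gaps in the tissue. A total of 33 surface spots stood within 2 spots of an enclosed gap, 13 in the E14.5 shared area and 20 in the E15.5 shared area, a split chosen after the values were seen. Krt13 read 722 and 493 CPM in them, against 52.8 and 109.5 CPM in the other surface spots of the same areas. Krt10 was lower in them, at 271 and 256 CPM, against 775 and 1682 CPM in the other spots.

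Krt17, Krt75 and Krt6a, which are known from the appendages of skin and from activated epithelium, were higher in the oral spots than in the surface spots of each area. Among the oral spots, Krt17 and Krt75 were highest in those rich in tooth-germ genes, with means of 885 and 36.5 CPM. In those rich in neither tooth-germ nor muscle genes the means were 218 and 3.62 CPM. Krt17 (ENSMUSG00000035557, chr11:100256217-100261029) stood at 475, 338, 498 and 434 CPM in oral epithelium, at 61.3, 53.9, 122 and 61.7 CPM in surface epidermis and at 51.1 to 82.7 CPM in nasal epithelium. Krt75 stood at 22.0, 11.4, 15.6 and 16.4 CPM in oral epithelium and at 1.25 to 2.92 CPM in surface epidermis. Neither gene overlapped between oral and surface epithelium taken whole. Krt6a (ENSMUSG00000058354, chr15:101689910-101694307) stood at 24.3, 40.8, 14.0 and 44.9 CPM in oral epithelium and at 8.76, 17.0, 7.61 and 30.4 CPM in surface epidermis, lower in the surface of each area although the ranges overlapped. Krt6a has a near-identical neighbour, Krt6b (24 UMIs in all), so the split of reads between them is uncertain. Krt80, a type II keratin of differentiating epithelium, stood at 10.4, 8.07, 14.8 and 13.7 CPM in oral epithelium, but muscle spots read 5.31 to 12.6 CPM.

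The simple-epithelium keratins Krt8, Krt19 and Krt7 were highest in the nasal lining. Krt8 (ENSMUSG00000049382, chr15:101996698-102004482) stood at 136, 120.3, 90.5 and 93.4 CPM in nasal epithelium against 32.4, 24.5, 24.7 and 21.3 CPM in oral epithelium, without overlap, and at 58.2 to 87.2 CPM in olfactory epithelium. Krt19, a type I keratin of simple and some basal epithelia, stood at 45.3, 169.8, 137 and 136 CPM in nasal epithelium and at 61.3 to 100.3 CPM in oral epithelium, the E14.5 single-section area alone going the other way. Krt7, the type II keratin of ducts and glands, stood at 60.4, 95.9, 110.4 and 89.8 CPM in nasal epithelium, at 30.1 to 60.01 CPM in oral epithelium and at 26.3, 66.3, 69.6 and 101 CPM in surface epidermis.

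Krt23, a type I keratin, was an olfactory gene: it stood at 46.6, 52.8, 74.3 and 78.2 CPM in olfactory epithelium, at 26.4, 27.7, 24.6 and 28.1 CPM in nasal epithelium and at 4.63 to 7.02 CPM in oral epithelium. The 3 ranges did not overlap. Olfactory epithelium held on average 37.9% of its UMIs.

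**Figure D2:**
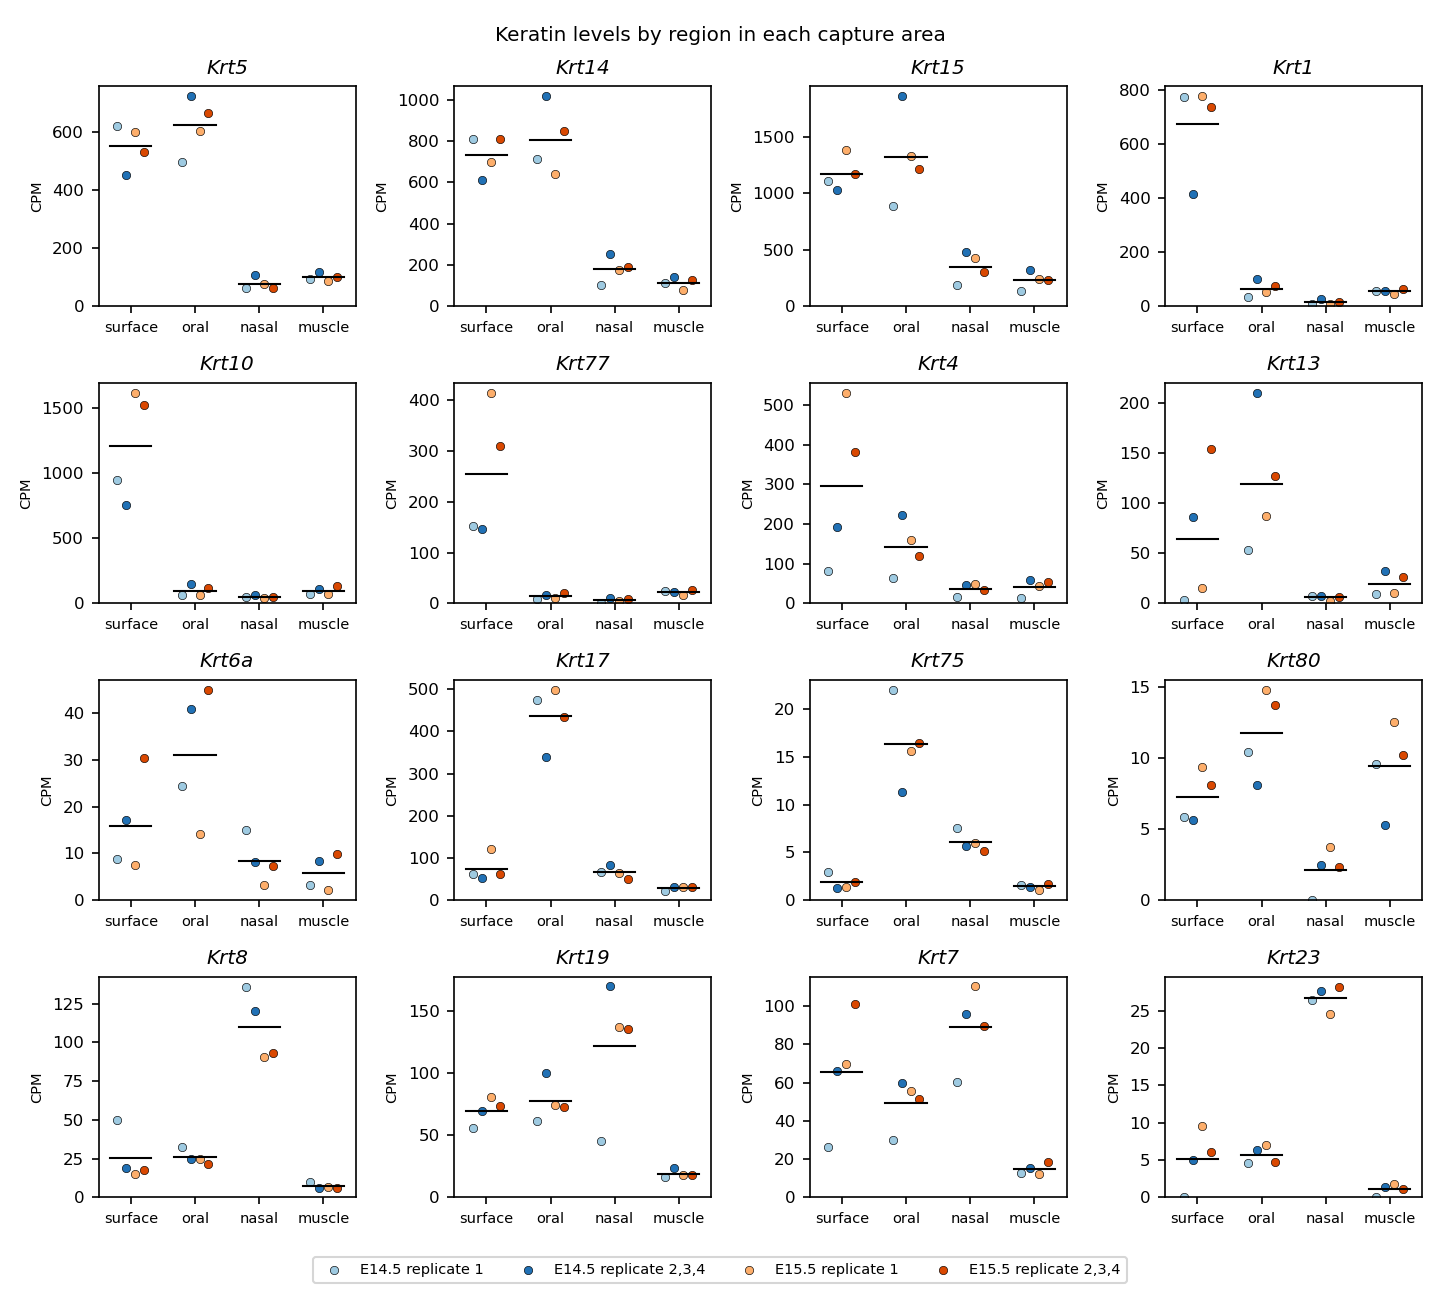
Level (CPM, linear axis) of 16 keratins in surface, oral and nasal epithelium and in muscle spots as background, with 1 point for each of the 4 areas and a line at their mean. Krt10, Krt1 and Krt77 stood out in surface epidermis, Krt17 and Krt75 in oral epithelium and Krt8 and Krt23 in nasal epithelium, while Krt5 and Krt14 overlapped between surface and oral.

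Krt12, the type I keratin of the corneal epithelium, read 49.6, 10.6, 7.09 and 10.1 CPM in surface epidermis against 0.42 to 5.78 CPM in oral epithelium. The first value rested on 17 UMIs (95% exact Poisson interval 28.9 to 79.4 CPM, which covers counting error only). Krt20, known from gut and urinary epithelium and from Merkel cells, and Krt31, a hair keratin, read 4.28, 4.64 and 4.46 CPM and 3.15, 4.17 and 2.81 CPM in the nasal epithelium of the 3 deeper areas. No UMI of Krt20 was seen there in the E14.5 single-section area, which allows a level of up to 11.3 CPM. Krt16, a type I partner of Krt6a, read 0 to 2.96 CPM in oral and 0 to 2.67 CPM in surface epithelium, and Krt222, a keratin-like gene, had 42.1% of its UMIs in brain spots, at 1.14 to 3.19 CPM. Krt90 had no more than 0.47 CPM in any of the 3 epithelia.

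By mean level over the areas, surface epidermis was the highest of the 3 epithelia for 8 of the 23 keratins, oral epithelium for 9 and nasal epithelium for 6. Only 3 of the 23 (Krt16, Krt90 and Krt222) moved to another epithelium under the alternatives tried, and none of these exceeded 2.96 CPM in any of the 3 epithelia.

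Oral epithelium was not uniform, as was seen when its 594 spots were split by genes that are no keratins, a split chosen with the values known and given without a test. There were 175 spots rich in tooth-germ genes (Shh, Sostdc1 and others at 1000 CPM or more), 160 of the rest rich in muscle genes (2000 CPM or more) and 259 remaining ones. A list of hair follicle genes, which also holds Shh, was not used in the split, so hair follicle and tooth germ were not told apart. Over all tissue spots the mean Pearson correlation with the tooth-germ and hair follicle lists was 0.58 and 0.45 for Krt17 and 0.27 and 0.26 for Krt75. With the tooth-germ list Krt5, Krt14 and Krt15 stood at 0.59, 0.58 and 0.57, so that value is not particular to Krt17. With the hair follicle list the same genes stood at 0.41, 0.42 and 0.31. Krt17 stood at 904.5, 728, 936 and 972 CPM in the tooth-germ-rich spots, at 58.0 to 150 CPM in the muscle-rich spots and at 168 to 279 CPM in the remaining ones. Krt75 followed it, with 48.2, 27.7, 30.4 and 39.7 CPM in the tooth-germ-rich and 4.6 to 11.6 CPM in the muscle-rich spots. In the remaining spots Krt75 read 0 to 5.99 CPM, a range that overlapped with that of surface epidermis. Krt73 stood at 16.1, 11.5, 9.15 and 10.3 CPM in the tooth-germ-rich spots and at no more than 1.68 CPM in the muscle-rich ones. The ranges of these 3 genes did not overlap between the tooth-germ-rich and muscle-rich spots. Nor did those of Krt5 (736 to 932 against 209 to 542 CPM), Krt14 (901 to 1404 against 441 to 710 CPM) and Krt23 (5.56 to 10.5 against 0 to 5.36 CPM). The share of all genes without overlap is not given here, so this trait is not read as particular to any of these genes.

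The pair Krt4 and Krt13 leaned the other way. Krt4 stood at 104, 429, 449 and 141 CPM in the muscle-rich spots and at 72.3, 108, 63.4 and 72.0 CPM in the tooth-germ-rich spots. Krt13 stood at 58.0, 305, 181 and 149 CPM and at 61.5, 122, 68.0 and 75.8 CPM, higher in the muscle-rich spots of 3 of the 4 areas. Krt15 had a mean of 1620 CPM in the muscle-rich and 1093 CPM in the tooth-germ-rich spots, with the E14.5 single-section area going the other way (685 and 923 CPM), while Krt14 (576 and 1104 CPM) and Krt5 (429 and 866 CPM) were higher in the tooth-germ-rich ones of every area.

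Spots of the eye held a large share of the UMIs of 3 keratins. The eye was taken, after the values had been seen, as 459 spots outside the epithelia in which retina and pigment epithelium genes (Crx, Tyr, Dct and others) reached 500 CPM. Krt73 stood at 14.0, 17.7, 18.8 and 15.3 CPM there, and these spots held 399 of its 897 UMIs (44.5%). Krt90 had 48 of its 119 UMIs there (40.3%), and Krt12 had 229 of 726 (31.5%), at 2.34, 9.58, 6.22 and 19.7 CPM, below its level in surface epidermis in 3 of the 4 areas. For Krt73 every area of the eye lay above every area of surface, oral and nasal epithelium taken whole, while the tooth-germ-rich oral spots (9.15 to 16.1 CPM) overlapped with the eye.

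The first tested comparison asked which keratins differed between skin and mouth, with the UMIs of each region summed per area (8 sums from 4 areas, area as a block, edgeR quasi-likelihood test, adjusted p below 0.1 over all genes). Of the 19 keratins tested, 12 passed (63.2%), where 30.8% of the 13271 genes tested passed. In surface epidermis 6 were higher (15.9% of all genes were) and 6 lower (15.0%). The regions were cut by suprabasal, periderm and basal genes of the same spots, so a keratin that goes with those genes had to differ. The 6 that were higher are no independent evidence of a difference, and neither are lower ones that go with the basal list. Krt17, for example, had a mean Pearson correlation over spots of 0.55 with the basal list and of 0.22 with the suprabasal list.

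Higher in surface epidermis were the suprabasal genes Krt77, by 4.06 on the log2 scale (SE 0.28, edgeR adjusted p = 2.8e-05), Krt10, by 3.6 (SE 0.31, edgeR adjusted p = 9.8e-05), and Krt1, by 3.23 (SE 0.30, edgeR adjusted p = 0.000133). Krt12 was higher by 3.77 (SE 0.26), Krt4 by 1.04 (SE 0.32, edgeR adjusted p = 0.0437) and Krt7 by 0.49 (SE 0.14, edgeR adjusted p = 0.0386). The first 4 were higher in 4 of 4 areas, Krt4 in 3 (not in the E14.5 shared area) and Krt7 in 3 (not in the E14.5 single-section area). Krt4 lost its call without the E15.5 single-section area, at 0.68, and without the E15.5 shared area, at 0.72, and rose to 1.68 without the E14.5 shared area. Krt7 lost its call without the E15.5 shared area, at 0.22. DESeq2 called only 4 keratins higher, Krt77, Krt10, Krt1 and Krt12, so Krt4 and Krt7 both lost their calls by it.

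Lower in surface epidermis were Krt75 (-3.20, SE 0.20) and Krt17 (-2.51, SE 0.13), both in 4 of 4 areas, and Krt6a (-0.88, SE 0.15, edgeR adjusted p = 0.00338) and Krt80 (-0.64, SE 0.15, edgeR adjusted p = 0.0166). Krt13 (-1.06, SE 0.39, edgeR adjusted p = 0.0834) and Krt73 (-0.92, SE 0.35, edgeR adjusted p = 0.0899) were near the threshold. Krt80 lost its call without the E15.5 shared area, at -0.59 (edgeR adjusted p = 0.165). The lower calls were 4 in place of 6 without detached fragments and by DESeq2, Krt13 and Krt73 being lost in both. Krt13 was no longer called without the E15.5 single-section area (-0.58), the E14.5 shared area (-0.68) or the E14.5 single-section area (-1.01), and reached -1.87 without the E15.5 shared area. Krt73 lost its call without any 1 of the areas other than the E14.5 shared area, and read -0.45 without the E15.5 shared area. Not called were the basal genes Krt5 (-0.20, edgeR adjusted p = 0.315), Krt14 (-0.13) and Krt15 (-0.14), which go with the basal list that both regions had to reach. The simple-epithelium genes Krt8 (-0.32, edgeR adjusted p = 0.169) and Krt19 (-0.12), and Krt16 (0.04) and Krt23 (0.15), were not called either.

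The second asked the same of nose and mouth, in the same design. All 17 keratins tested passed, where 36.0% of 12784 genes did: 4 were higher in the nose (19.9% of all genes were) and 13 lower (16.1%). The nasal rule asked for a low basal list, so that keratins of the basal layer had to be lower there. It also asked for epithelium genes (Epcam, Cdh1, Cldn7 and others) at 300 CPM, which the oral rule did not. Keratins that go with those genes, as Krt8 does with Cldn7 and Epcam, were thus favoured as higher. The calls of such keratins, in either direction, are no independent evidence of a difference. Higher were Krt23, by 2.18 on the log2 scale (SE 0.17, edgeR adjusted p = 4.1e-07), Krt8, by 2.09 (SE 0.09, edgeR adjusted p = 3.24e-09), Krt7, by 0.79 (SE 0.08) and Krt19, by 0.77 (SE 0.09). Lower were Krt13 (-4.67, SE 0.15), Krt5 (-3.05, SE 0.10), Krt14 (-2.09, SE 0.09), Krt15 (-1.93), Krt17 (-2.68), Krt6a (-2.39), Krt4 (-2.01) and Krt75 (-1.39). The other 5 lower ones were Krt73 (-3.15), Krt80 (-2.16), Krt1 (-2.08), Krt10 (-1.16) and Krt77 (-1.06), of which the last 3 were mostly at background in both regions.

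**Figure D3:**
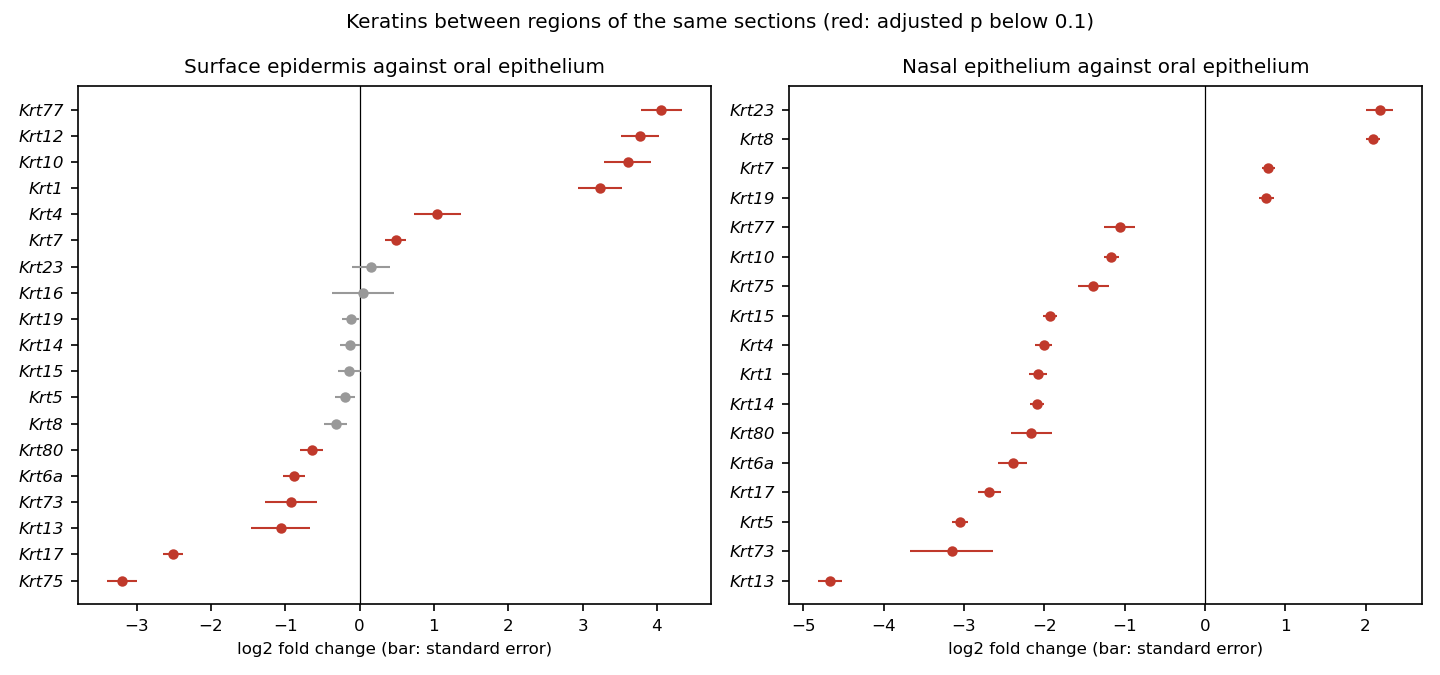
Difference of each tested keratin (log2 fold change, bars of 1 SE) between surface and oral epithelium and between nasal and oral epithelium, in red where the edgeR adjusted p was below 0.1. Krt77 (4.06) and Krt75 (-3.20) were at the ends of the first comparison, with Krt5, Krt14 and Krt15 near 0, and Krt23 (2.18) and Krt13 (-4.67) at the ends of the second.

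Genes that work with keratins were counted from lists as a whole, some members of which also drew the regions (Ppl, Evpl and Grhl3 as periderm genes, Dsg3, Dsc3, Col17a1, Itgb4, Lama3 and Trp63 among the basal genes, Grhl2 and Esrp1 as epithelium genes). Desmosomes anchor keratin filaments at cell contacts. Called shares over all genes were 15.9% higher and 15.0% lower for skin against mouth, and 19.9% higher and 16.1% lower for nose against mouth. Of 11 desmosome genes tested, 4 were higher in surface epidermis than in the mouth (Evpl 1.68, Pkp3 1.40, Ppl 1.38 and Jup 0.52 on the log2 scale) and 4 lower (Dsg2 -1.49, Dsg3 -0.94, Dsc3 -0.84 and Dsc2 -0.54), with a median of -0.02 against -0.01 over all genes. Hemidesmosomes anchor the filaments to the basement membrane: 0 of their 9 genes were higher and 4 lower, led by Lamb3 (-1.67), with a median of -0.21. Of 12 regulators of surface epithelium, 6 were higher, led by Ovol1 (1.62), Grhl3 (1.39) and Tfap2a (1.15), and 2 lower (Grhl2 -0.37 and Tfap2c -0.23), with a median of 0.26. In the nose against the mouth 10 of 11 desmosome, 9 of 9 hemidesmosome and 9 of 12 regulator genes were lower, and Pkp2 (1.24) and Grhl2 (0.43) were the 2 higher.

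The stages were compared with 2 areas each. Over all tissue spots 0 of 28 keratins passed, as did 0.00% of the 15609 genes tested by edgeR. At an unadjusted p below 0.05 there were 5 keratins (17.9%), all higher at E15.5, against 5.96% of all genes: Krt77 (1.77 on the log2 scale), Krt10 (1.32), Krt1 (1.20), Krt80 (1.05) and Krt17 (0.58), each with an edgeR adjusted p of 0.77. DESeq2 called 1 keratin, Krt77. Surface epidermis, where Krt77, Krt10 and Krt1 were highest, made up an uneven part of these sums. It took 35 of 1106, 160 of 2310, 183 of 989 and 250 of 1952 tissue spots in the 4 areas. The part of this in the whole-tissue values was not tested.

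In surface epidermis 0 of 19 keratins passed, where 0.00748% of 13375 genes did. At an unadjusted p below 0.05 stood Krt4 (1.61, SE 0.35, edgeR adjusted p = 0.951), Krt77 (1.27, SE 0.24, edgeR adjusted p = 0.731) and Krt10 (0.89, SE 0.23, edgeR adjusted p = 1.0), 15.8% of the keratins against 2.67% of all genes, and DESeq2 called 1, Krt77. The E15.5 areas were both higher than either E14.5 area for 10 of the 19 (52.6%), where 17.4% of all genes did so, and both lower for 3 (15.8%), where 11.2% did. The 10 were Krt4, Krt7, Krt10, Krt15, Krt16, Krt17, Krt19, Krt23, Krt77 and Krt80, and the 3 were Krt8, Krt12 and Krt73. In the E14.5 single-section area Krt16 and Krt23 had 0 UMIs, Krt80 had 2 and Krt73 had 1, so the place of these genes is uncertain. The suprabasal and periderm lists rose beside them, the latter from 744 and 625 CPM to 1294 and 795 CPM, and the part of this in the keratin values was not tested. Leaving out 1 area, whose partner is then assumed to vary like the areas of the other stage, gave 3 calls without the E14.5 single-section area (Krt77, Krt4 and Krt10), 1 without the E14.5 shared area (Krt4), 2 without the E15.5 shared area (Krt4, at 1.86, and Krt13, at -1.93) and 0 without the E15.5 single-section area. Krt5 (0.09) and Krt14 (0.10) differed little, so that the ratio of Krt10 to Krt14 UMIs went from 1.17 and 1.23 to 2.30 and 1.87 with all surface spots, a rise that did not hold in the E15.5 shared area without detached fragments (1.15, against 1.17 and 1.24 in the E14.5 areas).

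Detached fragments of tissue moved these values. Outside the sections lay 88 spots, and 40 of the 44 surface spots among them were in the E15.5 shared area, a split made after the values were seen. Krt10 stood at 5171 CPM in these 40, and they held 8163 of the 15159 surface Krt10 UMIs of the area. Krt1 stood at 2095 CPM, Krt77 at 981 CPM, Krt14 at 1276 CPM and Krt5 at 677 CPM in them, each above the rest of the area.

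Without all fragments the E15.5 shared area read 831 CPM for Krt10, between the E14.5 areas (959.7 and 757 CPM), and 184 CPM for Krt77. The stage difference of Krt10 went from 0.89 to 0.51 and that of Krt1 from 0.38 to 0.10 on the log2 scale, while Krt77 kept 0.99 of 1.27 and Krt4 1.53 of 1.61. The E15.5 areas were then both higher for 8 of the 19 keratins (42.1%, against 16.6% of all genes), with Krt10 and Krt23 lost, and both lower for 2 (10.5%, against 10.3%). Of these, Krt16, Krt80 and Krt73 again rested on no more than 2 UMIs in the E14.5 single-section area. By section, Krt10 in surface epidermis read 960, 521, 644 and 1016 CPM at E14.5 and 1610, 788, 745 and 986 CPM at E15.5, so the sections overlapped.

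**Figure D4:**
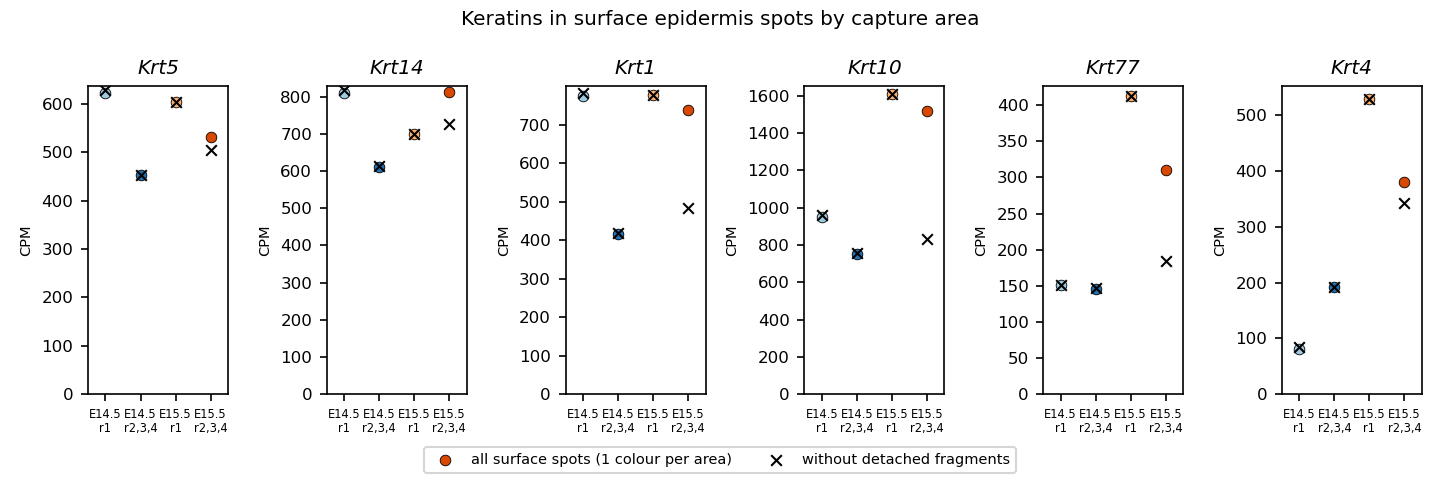
Level (CPM) of 6 keratins in the surface epidermis of the 4 areas, as a dot over all surface spots and as a cross without detached fragments. Krt10 in the E15.5 shared area fell from 1516 to 831 CPM without the fragments, while Krt4 kept both E15.5 areas (529.9 and 342 CPM) above both E14.5 areas.

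In oral epithelium 0 of 18 keratins passed, where 0.00% of 13500 genes did by edgeR, and none had an unadjusted p below 0.05 (1.56% of all genes did). The largest differences were those of Krt80 (0.63), Krt13 (-0.47) and Krt10 (-0.34) on the log2 scale. Only Krt80 had both E15.5 areas above both E14.5 areas (5.56% of the keratins, against 17.9% of all genes), and 0 had both below (against 9.61%). Without the E14.5 shared area Krt13 read 1.02, so its sign rested on that area.

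In nasal epithelium 0 of 17 passed, where 0.00% of 12566 genes did by edgeR, and 0 had an unadjusted p below 0.05 (1.57% of all genes did), with Krt1 (-0.83), Krt6a (-0.77) and Krt13 (-0.65) the largest. Without the E14.5 shared area Krt19 passed, at 1.62. Krt6a, Krt8, Krt13 and Krt17 had both E15.5 areas below both E14.5 areas (4 keratins, 23.5%, against 11.2% of all genes). Krt20 alone lay above (5.88%, against 17.5%). No DESeq2 call was made in oral epithelium or in nasal epithelium among the keratins.

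Whether the stage difference of skin differed from that of the mouth was tested with an interaction term, a comparison added after the values were seen. Of 19 keratins 1 passed (5.26%), where 0.698% of 13749 genes did: Krt4, whose stage difference was higher in surface epidermis by 1.91 on the log2 scale (SE 0.13, edgeR adjusted p = 6.99e-06). The call was lost without the E14.5 shared area, at 1.40 (edgeR adjusted p = 0.75), and stood under the other 6 alternatives run. At an unadjusted p below 0.05 stood 8 of the 19 (42.1%), against 9.28% of all genes, but 4 of 19 without detached fragments (665 of 13653 genes) and 3 of 20 without the E14.5 shared area (908 of 14029 genes). Next were Krt10 (1.41, edgeR adjusted p = 0.119), Krt77 (1.3, edgeR adjusted p = 0.156), Krt1 (1.06, edgeR adjusted p = 0.383) and Krt19 (0.61, edgeR adjusted p = 0.1001). Leaving out 1 area gave 6 called keratins without the E14.5 single-section area, 3 without the E15.5 single-section area, 5 without the E15.5 shared area and 0 without the E14.5 shared area. For nose against mouth 0 of 20 keratins passed by edgeR, where 0.0450% of 13339 genes did, with 2 (10.0%) at an unadjusted p below 0.05 (2.92% of all genes) and none called by DESeq2.

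The basal pair Krt5 and Krt14 and the suprabasal pair Krt1 and Krt10 shared spots. Over the tissue spots of an area, the Pearson correlation of Krt14 with Krt5 (log counts per 10000 UMIs) had a mean of 0.72 over the 4 areas (0.29 to 0.91), the highest of the 253 pairs of the 23 keratins. Next came Krt15 with Krt5 and with Krt14 (0.71 each), Krt10 with Krt1 (0.70), Krt10 with Krt77 (0.67) and Krt1 with Krt77 (0.64). Krt77 with Krt8 was the lowest (-0.07). The spots of an area share library and depth and are no replicates, and after thinning each spot to 2000 UMIs Krt14 with Krt5 stood at 0.39 and Krt10 with Krt1 at 0.41. Krt4 lay closest to Krt15 (0.55), Krt13 also to Krt15 (0.46), Krt75 to Krt17 (0.40), Krt23 to Krt8 (0.33) and Krt73 to Krt90 (0.11).

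**Figure D5:**
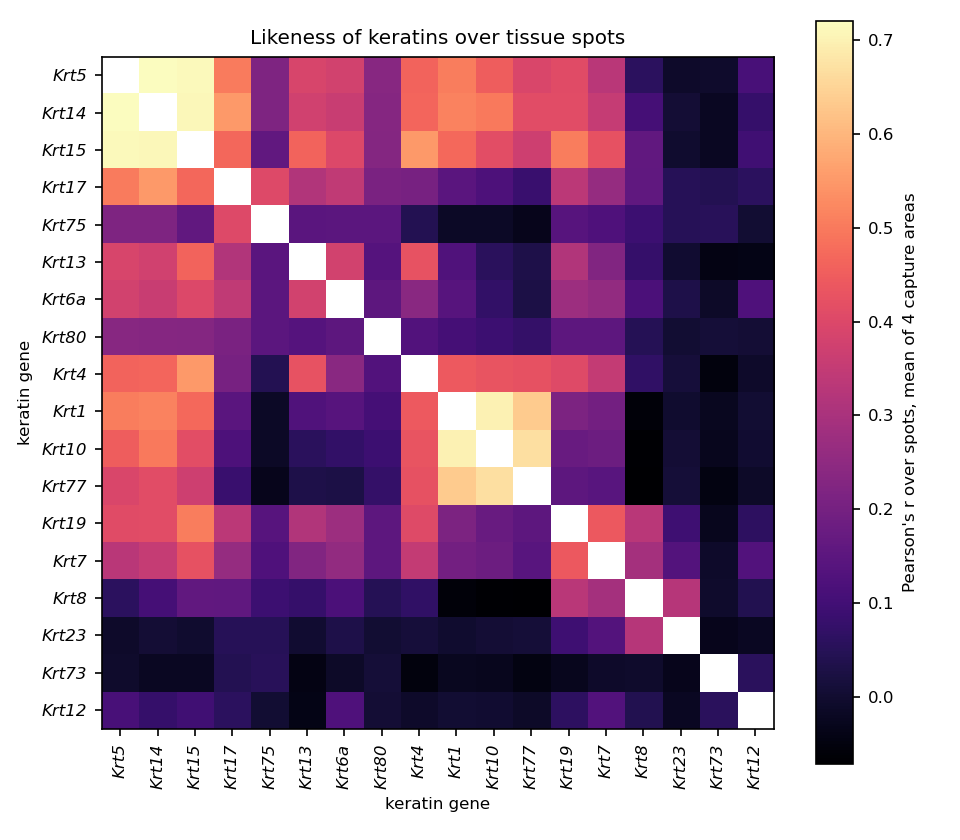
Heat map of the Pearson correlation over tissue spots (mean of the 4 areas, no unit) between 18 keratins. Krt5, Krt14 and Krt15 formed a block at 0.71 to 0.72 and Krt1, Krt10 and Krt77 another at 0.64 to 0.70, and Krt8 with Krt77 was the lowest pair at -0.07.

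Among 11132 other genes, those whose pattern over spots was most like a keratin's are given with the same measure, mean of 4 areas. Krt5 lay nearest to Pkp1 and Dsp (0.67 each), which build desmosomes, and to Col17a1 (0.64), a hemidesmosome collagen, and Krt14 to the same 3 (0.69, 0.69 and 0.67). Krt10 lay nearest to Krtdap (0.70) and Dmkn (0.65), both secreted by differentiating epidermis. Krt4 lay between them, with Pkp1 and Krtdap (0.51 each). Krt8 lay nearest to Cldn7 (0.52), Epcam (0.46) and Elf3 (0.45), genes of simple epithelia, and Krt6a to Col17a1 (0.37), Dsp (0.35) and Pkp1 (0.35).

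Neighbours of further keratins were looked up after their levels had been seen. Krt17 had Sostdc1 (0.59), a gene of tooth and hair placodes, and Krt75 had Shh (0.34), which signals in the same placodes, with Dsc3 (0.32) and Sostdc1 (0.30). Krt13 had Pkp1 (0.40), Pax9 (0.38) and Barx2 (0.37), the last 2 of them transcription factors of oral epithelium or its surroundings. Krt23 had Ugt2a1 (0.52), Gfy (0.51) and Gng13 (0.48), genes of the olfactory epithelium. Krt73 had Rax (0.39) and Atoh7 (0.37), transcription factors of the retina, and Krt12 had Trpm1 (0.41), Aldh1a1 (0.38) and Pmel (0.36), genes of pigment cells and retina.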

How the data were processed

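Visium sections of E14.5 and E15.5 wild-type heads were used as 4 capture areas, 2 per stage, with groups taken from the sample labels. Raw UMI counts for each gene and spot, with spot positions, were deposited by the authors; per the file headers they came from Space Ranger 1.3.1 (single-section areas) or 2.0.0 (shared areas), and the submitters' processing notes name mm10. The probe set is not given in the sources used here, and probes may differ in efficiency, so levels of different genes were not compared beyond their share of UMIs. The labels do not say whether areas came from separate embryos, so p-values measure the spread between these areas only.

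UMIs were summed per area and region and tested with edgeR 4.0.16 (R 4.3.3; TMM, filterByExpr, quasi-likelihood, Benjamini-Hochberg over all genes tested, threshold 0.1), with DESeq2 1.42.0 as an alternative. Levels and correlations were computed in Python 3.11.15 (numpy 2.4.6, pandas 2.3.3, scipy 1.17.1), and plots were drawn with matplotlib 3.10.9. The edgeR script was tested on simulated data. Barcodes numbered 6376, of which 6357 were tissue spots. Library depth was 15438992 to 109127953 UMIs per area, and intervals and limits cover counting error only (95% exact Poisson; 3 counts where none was seen).

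Nasal epithelium was taken as spots with multiciliated genes at 150 CPM and 2 UMIs, epithelium genes at 300 CPM and 3 UMIs, and a basal list under 0.5 of the epithelium list; the surface cut used 50 CPM as a pseudocount. Every keratin with at least 100 UMIs was described; those past the threshold, or the largest where none passed, were named, with 3 neighbours each for Krt5, Krt14, Krt10, Krt8, Krt4 and Krt6a among genes with at least 100 UMIs in every area; some genes of the lists and neighbours are not reported here. Members, lists and rules were chosen with earlier results of these data known. Alternatives were TMM off, no low-count filter, DESeq2, an area left out, a replicate block or none, sections as samples, thinning, and stricter and looser region cuts. Those without detached fragments or gap-side spots, the stage-by-region tests and the fit without the block were chosen after seeing the data.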

Additional observations from a re-analysis of the deposited data

Results flagged for a closer look

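Krt4, the type II keratin of lining epithelia, differed between skin and mouth in its change from E14.5 to E15.5. Its level in surface epidermis was 81.7 and 191 CPM in the E14.5 areas and 529.9 and 381 CPM in the E15.5 areas, and in oral epithelium 64.8 and 222 CPM and then 159 and 119 CPM. The stage difference was 1.91 higher on the log2 scale in surface epidermis (SE 0.13, edgeR interaction term, adjusted p = 6.99e-06), where 0.698% of all genes passed. The comparison was added after the values had been seen. Over the 7 alternatives run the difference was 1.40 to 1.98, and the call was lost without the E14.5 shared area (adjusted p = 0.75). The periderm list, which had a part in drawing the surface region, stood at 744, 625, 1294 and 795 CPM in surface epidermis, and its part in the result was not tested.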

How the results depend on the processing

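Among the values of single named keratins, 458 recomputed values kept direction and side of the threshold, 26 lost the threshold, 8 gained it and 7 changed sign; of the counts and levels, 78 stayed within their range and 15 moved. With DESeq2, 1 keratin passed between stages over all tissue spots and 1 in surface epidermis. Leaving out 1 area each gave 0 to 3 called keratins between stages in surface epidermis, 0 to 1 in nasal epithelium and 0 to 6 for the difference between skin and mouth in the stage effect, which gave 4 without spots beside a gap. With the looser region cut, 5 keratins were highest in surface epidermis, and thinning took the correlation of Krt14 with Krt5 to 0.39.

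Sign changes were all in differences that were not called. Leaving out 1 area each, the oral stage difference ranged from -1.09 to 1.02 for Krt13 and from -0.79 to 0.56 for Krt10, the nasal one from -1.22 to 0.88 for Krt1, and the nose-and-mouth difference in the stage effect of Krt73 from -4.82 to 3.37. Krt10 read 0.0199 without the E15.5 single-section area. The looser cut gave 0.0114 for Krt13 in nasal epithelium, and DESeq2 gave -0.72 for that interaction of Krt16. The causes were not tested.

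On pairing, same-numbered areas of the 2 stages share the number, the layout (a single section or a shared library) and the Space Ranger version, and no label ties them to a litter, batch or day; the correlation of their deviations was 0.25 over all tissue, -0.01 in surface, 0.03 in oral and 0.07 in nasal spots. With the replicate block 2 keratins passed between stages in surface epidermis, Krt4 (1.71) and Krt77 (1.24), against 0 without it. Without the block of areas, 6 of 19 keratins passed between surface and oral epithelium in place of 12.

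Depth limited the E14.5 single-section area most: its surface epidermis held 342661 UMIs, so 0 UMIs there allow a level of up to 8.76 CPM.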
